A study of Arabidopsis thaliana with 6 samples.

Results

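The tricarboxylic acid cycle genes described here are 37 nuclear genes of Arabidopsis thaliana, out of 24193 rows in the expression table. They are the rows annotated by the authors with the process term for this cycle. That term stood on 54 rows. Of these, 4 glyoxylate cycle loci (MLS, CSY2, CSY3 and PMDH2) and 13 rows of respiratory complex II were left out. The rule uses no measured value, but it was set with earlier results of these data known. The choice followed the annotation, so 4 members lie outside a textbook list of 60 loci of the cycle and its surroundings, while ACO1 and the pyruvate dehydrogenase complex do not carry the term and are no members. A mitochondrial location was annotated for 27 of the 37 members.

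RNA was measured in whole seedlings kept for 6 days in the dark, in 3 libraries of the lon1-1 mutant and 3 of wt (Col-0). The libraries of each genotype, A, B and C, came from independent biological replicates per the labels. LON1 is a protease of the mitochondrial matrix that is driven by ATP. Genotype was taken from the sample titles, since another label gives Col-0 as the genotype of every library, and the lesion in lon1-1 is not given in the sources used here. LON1 (AT5G26860) had 2.67, 2.61 and 2.79 FPKM in lon1-1, against 4.69, 4.70 and 4.69 FPKM in wt. FPKM is a fragment count corrected for transcript length and for library depth, so levels can be compared between genes. The LON1 groups did not overlap, and the log2 fold change of lon1-1 over wt was -0.63 (SE 0.06, limma, adjusted p = 3.58e-06). Transcript was thus present in both genotypes at a low level. Genes that mark tissues differed as well: of 13 root genes, 10 were tested, 8 rose and 1 fell in lon1-1, and their summed level was 139 to 148 FPKM in lon1-1, against 82.8 to 87.4 FPKM in wt. Those that rose were mainly root hair genes such as RHD6 and EXPA7, SHR, a regulator of root patterning, fell, and none of the 13 was at 0 in all libraries. Of 6 shoot meristem and stomatal genes, 2 were tested and both fell (STM and TMM), with sums of 4.74 to 5.87 FPKM in lon1-1, against 10.3 to 11.2 FPKM in wt. Of all tested genes, 44.7% were higher and 32.3% lower in lon1-1. The part of these tissue genes in the results was not tested. In whole seedlings, fewer cells of a type and less RNA per cell cannot be told apart.

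The cycle oxidises acetyl groups in the mitochondrial matrix. Citrate synthase joins acetyl-CoA to oxaloacetate, aconitase and isocitrate dehydrogenase turn citrate into 2-oxoglutarate, and the 2-oxoglutarate dehydrogenase complex, succinyl-CoA ligase, succinate dehydrogenase, fumarase and malate dehydrogenase return the carbon to oxaloacetate while reducing NAD and ubiquinone for the respiratory chain. Plants keep further copies of several of these enzymes in the cytosol, plastids and peroxisomes, where they move citrate, malate and reducing power between compartments. Phosphoenolpyruvate carboxylase, a cytosolic enzyme, makes oxaloacetate and so refills the cycle.

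Most of the detected members were higher in lon1-1. Of 37 members, 30 had at least 1 FPKM in 3 libraries and were tested: 24 rose, 3 fell and 3 did not pass (limma on log2(FPKM + 1), Benjamini-Hochberg adjustment over all 18308 tested genes, threshold 0.05). Calls were common in this comparison, with 44.7% of all tested genes higher and 32.3% lower. The median log2 fold change of the tested members was 0.38, with a range of -0.91 to 1.21, against 0.077 over all tested genes. These changes include the added 1 and so understate those of low genes. In 25 of the 30 tested members every lon1-1 library lay above every wt library, an arrangement found in 45.7% of all tested genes. In 3 of the 30 every lon1-1 library lay below, as in 33.4% of all tested genes. When the test asked for a change beyond 1.5-fold (limma treat), 9 members rose and 1 fell, where 8.33% of all tested genes rose and 7.69% fell. The 9 were c-NAD-MDH2, ACO3, AT5G65750, mMDH1, mMDH2, AT5G55070, FUM1, SDHAF2 and AT5G23250, and the 1 was PPC2. SDHAF2 and AT5G23250 lay close to that threshold, and 7 members passed it when wt B, wt C, lon1-1 A or lon1-1 C was left out. The 37 members together had 2864.1 to 2942.7 FPKM in lon1-1, against 2146.5 to 2174.7 FPKM in wt, while the sum over all rows was 690404 to 696877 FPKM in lon1-1, against 719059 to 724780 FPKM in wt.

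**Figure D1:**
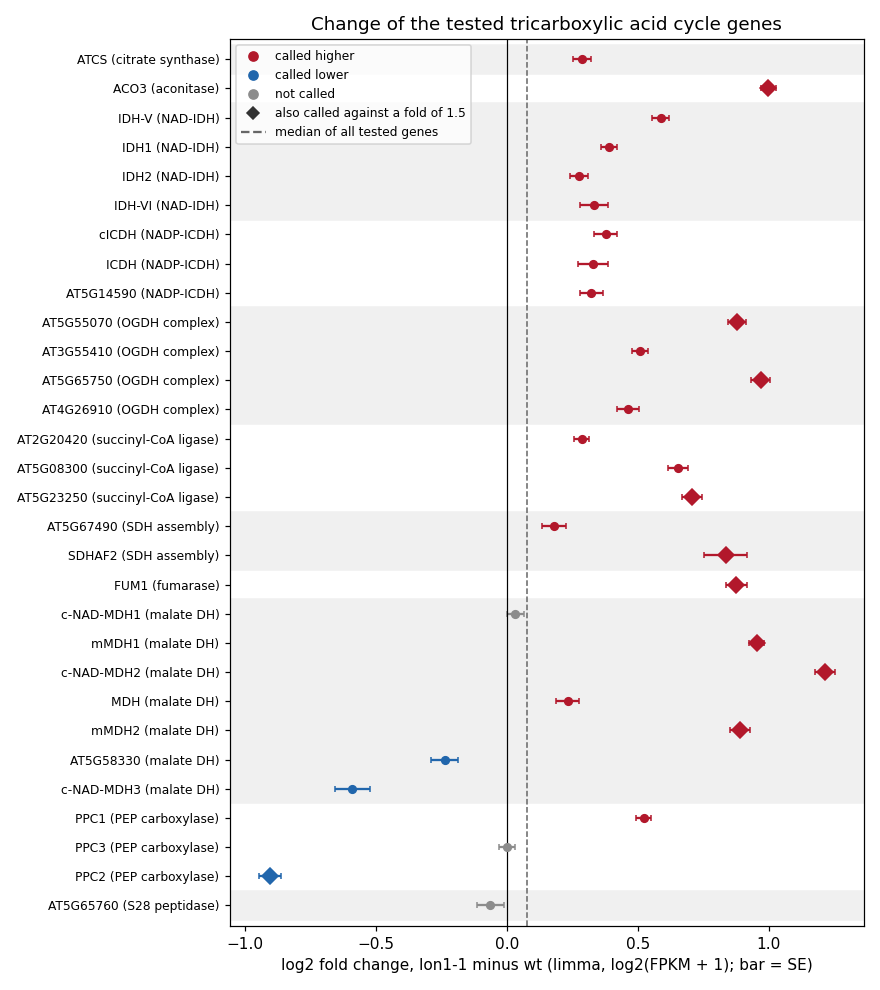
Log2 fold change (lon1-1 minus wt, horizontal axis) of the 30 tested members, one per row and ordered by enzyme step, with bars for the SE. Red points rose, blue points fell, grey points did not pass, diamonds also passed against a fold of 1.5, and the dashed line marks the median of all tested genes (0.077): 24 points are red, 3 blue and 3 grey.

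The members can be set out by the place of their enzyme, and a difference between the places was not tested. By textbook location, 20 members encode enzymes or assembly factors of mitochondria alone. All 17 of these that were tested rose, 7 of them beyond 1.5-fold, with a median log2 fold change of 0.59 and a range of 0.18 to 0.97. Of the 17 members placed elsewhere or in several compartments, 13 were tested, 7 rose, 3 fell and 3 did not pass, with a median of 0.23 and a range of -0.91 to 1.21. These counts stand beside the 44.7% of all tested genes that were higher and the 32.3% that were lower. Both the largest rise (c-NAD-MDH2) and the largest fall (PPC2) among the members belonged to cytosolic enzymes.

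Shown are the promoters of 4 members that rose and carry site II elements (TGGGCC or TGGGCT, searched on both strands). This motif is known from nuclear genes for mitochondrial and other housekeeping proteins. The 4 were picked by hand, and the motif does not single them out. mMDH1, mMDH2, AT5G23250 and AT5G67490 also rose and carry elements, and so do c-NAD-MDH1 and AT5G58330, which did not rise. AT5G65750 and AT5G55070 encode the E1 and E2 subunits of the 2-oxoglutarate dehydrogenase complex, IDH-V a catalytic subunit of isocitrate dehydrogenase, and c-NAD-MDH2 a cytosolic malate dehydrogenase. The sequences are those of RefSeq assembly TAIR10.1, plus strand, from up to 250 bases upstream to the base before the annotated start. For AT5G65750 only the 158 bases outside the neighbouring gene AT5G65740 are given (chr5:26303515-26303672), and the others lie at chr5:22346961-22347210 (AT5G55070), chr5:793724-793973 (IDH-V) and chr5:17390131-17390380 (c-NAD-MDH2). Capitals mark the elements, in either orientation.
AT5G65750: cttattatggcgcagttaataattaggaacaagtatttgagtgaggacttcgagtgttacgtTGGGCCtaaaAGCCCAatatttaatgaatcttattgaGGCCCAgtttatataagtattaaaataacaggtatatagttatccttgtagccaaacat
AT5G55070: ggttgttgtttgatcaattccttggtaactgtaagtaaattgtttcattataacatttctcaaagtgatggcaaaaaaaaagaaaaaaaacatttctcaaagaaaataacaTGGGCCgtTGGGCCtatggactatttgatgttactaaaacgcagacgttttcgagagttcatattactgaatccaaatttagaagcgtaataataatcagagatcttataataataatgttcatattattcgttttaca
IDH-V: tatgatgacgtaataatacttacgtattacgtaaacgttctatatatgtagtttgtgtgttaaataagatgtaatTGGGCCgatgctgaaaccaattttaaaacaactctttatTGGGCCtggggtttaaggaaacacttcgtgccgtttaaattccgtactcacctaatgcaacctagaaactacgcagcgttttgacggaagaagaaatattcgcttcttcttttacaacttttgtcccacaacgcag
c-NAD-MDH2: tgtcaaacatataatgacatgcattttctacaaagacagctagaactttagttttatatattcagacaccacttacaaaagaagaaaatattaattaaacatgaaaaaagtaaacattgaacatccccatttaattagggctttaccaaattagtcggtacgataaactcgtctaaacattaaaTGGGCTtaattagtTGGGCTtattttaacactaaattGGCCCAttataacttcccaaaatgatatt

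Within 250 bases upstream of the start, a site II element lay in 10 of the 37 members (27%), in 7 of the 20 mitochondrial members (35%) and in 6 of the 9 members that rose beyond 1.5-fold (66.7%). The share was 22.7% of 18098 tested genes with such a window and 25.1% of the 1482 among them that rose beyond 1.5-fold. AT5G65750 held 5 elements in that window, 2 of them inside AT5G65740, while its paralog AT3G55410 held none. AT5G55070 held 2 and its paralog AT4G26910 none, IDH-V held 2 and its paralog IDH-VI none, and AT5G23250 held 1 and its paralog AT5G08300 none. In each of these 4 pairs the copy with elements had the larger log2 fold change, by little for AT5G23250 (0.71, against 0.65 for AT5G08300, SE 0.04 each). Other members did not follow that order: c-NAD-MDH1, which did not pass the test, held 3 elements like c-NAD-MDH2, although a neighbouring gene reaches into its window. AT5G58330, which fell, held 2, and ACO3 and FUM1, which rose, held none. AT5G67490 held 1 and had a smaller log2 fold change than SDHAF2, which held none. mMDH1 held 2 and mMDH2 held 1. Neighbouring genes also reach into the windows of AT5G58330, AT5G67490, mMDH1 and mMDH2. How many of their elements lie inside those genes was not counted. The G-box CACGTG was in none of the 37 windows, against 7.37% of the windows of tested genes. The mitochondrial dysfunction motif (CTTG, any 5 bases, then CAAG or CACG, on both strands) was in 1 member, the barely detected CSY5, against 0.928% of the windows of tested genes. The telo box AAACCCTA was in 1, AT5G14590, against 3.46%. The 37 members include genes that were not tested, CSY5 among them, so tested genes are not a like set. Over all 27443 protein-coding nuclear genes with a full window, 19.2% held a site II element and 6.49% the G-box. The mitochondrial dysfunction motif was in 1.2% and the telo box in 4.49% of them. These are counts of letters in short windows, given as a description.

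**Figure D2:**
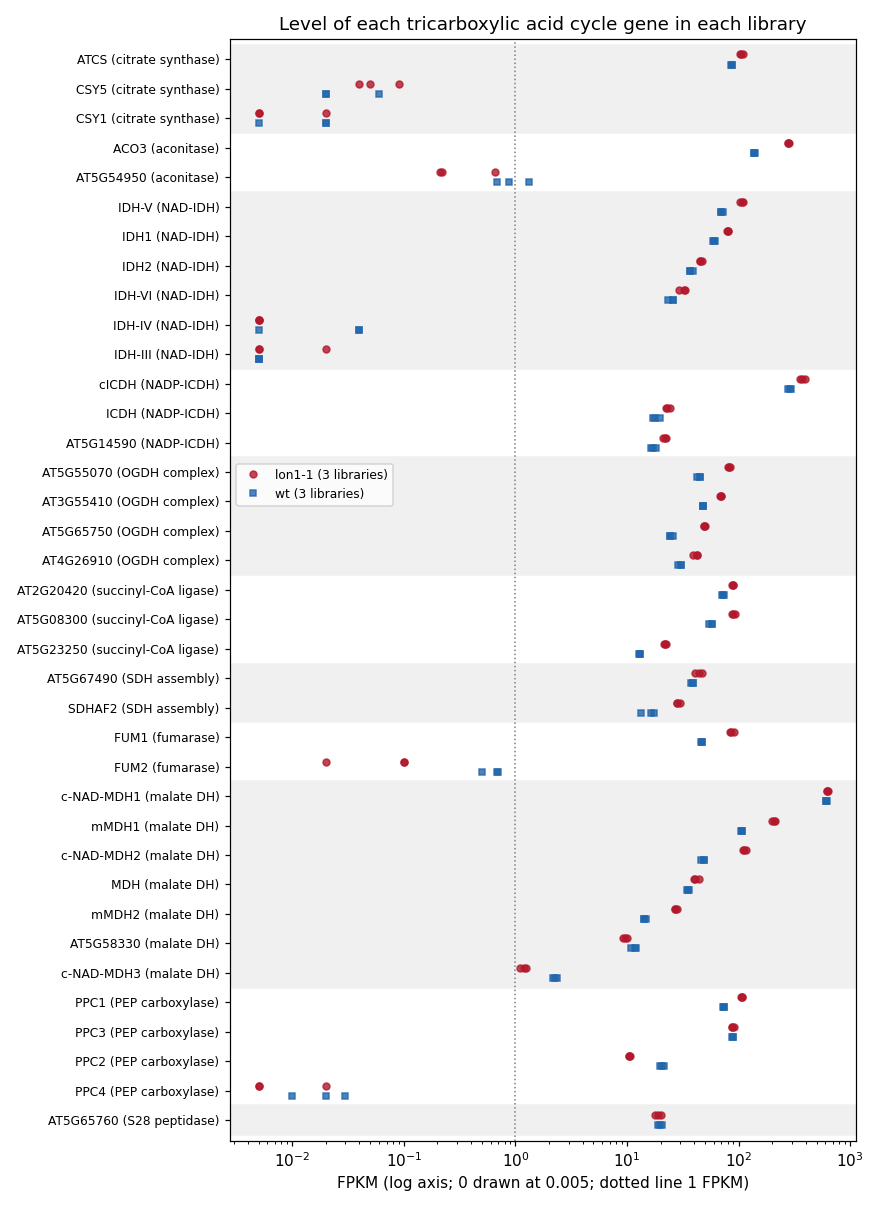
FPKM of the 37 members in each library (horizontal axis, logarithmic, with 0 drawn at 0.005), circles for lon1-1 and squares for wt, one member per row by enzyme step. Members span from 0 to 630 FPKM, and the 7 members that were not tested lie left of the dotted line at 1 FPKM in all or most libraries.

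Levels ranged widely. The most abundant member was c-NAD-MDH1, with a mean of 623 FPKM in lon1-1 and 609 FPKM in wt, followed by cICDH, with 373 FPKM in lon1-1 and 287 FPKM in wt, and ACO3, with 279 FPKM in lon1-1 and 139 FPKM in wt. Next stood mMDH1, with 206 FPKM in lon1-1 and 106 FPKM in wt. c-NAD-MDH2, IDH-V, PPC1 and ATCS then lay close together in lon1-1, at 102 to 118 FPKM in single libraries. In wt they were spread from 46.4 to 87.5 FPKM, with c-NAD-MDH2 the lowest of the 4.

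Citrate synthase and aconitase open the cycle. ATCS (AT2G44350), the mitochondrial citrate synthase also called CSY4, had 105.7, 102.0 and 109 FPKM in lon1-1, against 87.2, 87.5 and 84.6 FPKM in wt. Every lon1-1 library lay above every wt library, and the rise was small, with a log2 fold change of 0.29 (SE 0.03, limma, adjusted p = 3.06e-05). The further citrate synthase members were barely detected: CSY5 had 0.04 to 0.09 FPKM in lon1-1 and 0.02 to 0.06 FPKM in wt, and CSY1, a peroxisomal enzyme, had at most 0.02 FPKM in either genotype. ATCS thus supplied 99.9% of the citrate synthase level among the members in lon1-1 and in wt. The peroxisomal genes CSY2 and CSY3 are not members, and both rose, with log2 fold changes of 0.23 and 0.62 (limma, adjusted p = 0.00025 and 4.15e-08).

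ACO3 (AT2G05710), an aconitase found in mitochondria and cytosol, had the second largest rise of all members. Its level was 280 FPKM, 276 FPKM and 281 FPKM in lon1-1, against 138, 141 and 138 FPKM in wt. The groups were far apart relative to their spread, with means of 279 ± 2.53 FPKM in lon1-1 and 139 ± 1.93 FPKM in wt (SD, n = 3 each) and a log2 fold change of 1.00 (SE 0.03, limma, adjusted p = 1.38e-09). ACO1, an aconitase gene without the term, had 184 ± 5.87 FPKM in lon1-1 and 195 ± 5.35 FPKM in wt (SD, n = 3 each) and did not pass (limma, adjusted p = 0.0555). ACO3 therefore stood above ACO1 in every lon1-1 library and below it in every wt library. AT5G54950, a short member grouped here with aconitase, had 0.65, 0.22 and 0.21 FPKM in lon1-1, against 1.32, 0.88 and 0.68 FPKM in wt, and was too low to be tested.

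Isocitrate dehydrogenase exists as an NAD-dependent mitochondrial enzyme of regulatory and catalytic subunits and as NADP-dependent enzymes in several compartments. All 4 detected NAD-enzyme members rose. The catalytic subunit gene IDH-V (AT5G03290), whose promoter is shown above, had 108, 103 and 107 FPKM in lon1-1, against 69.5, 71.8 and 69.7 FPKM in wt, a log2 fold change of 0.59 (SE 0.03, limma, adjusted p = 1.13e-07). The other catalytic gene, IDH-VI (AT3G09810), had 32.8, 29.5 and 32.6 FPKM in lon1-1, against 25.6, 26.0 and 23.3 FPKM in wt, and a smaller rise of 0.33 on the log2 scale (SE 0.05, limma, adjusted p = 0.000297). In both genes the groups did not overlap. The regulatory subunit gene IDH1 (AT4G35260) had 79.2 ± 1.10 FPKM in lon1-1 and 60.2 ± 1.44 FPKM in wt (SD, n = 3 each), a log2 fold change of 0.39 (limma, adjusted p = 1.67e-06). IDH2 (AT2G17130), also regulatory, had 45.1, 46.7 and 45.5 FPKM in lon1-1, against 36.8, 39.0 and 37.0 FPKM in wt, with a log2 fold change of 0.28 (SE 0.04, limma, adjusted p = 5.01e-05). IDH-III and IDH-IV, annotated as further regulatory subunit genes, were listed at 0 in most libraries and had at most 0.04 FPKM. The summed level of the step was 263 ± 4.84 FPKM in lon1-1 and 193 ± 4.08 FPKM in wt (SD, n = 3 each).

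The 3 NADP-dependent isocitrate dehydrogenase genes rose together, by similar amounts. cICDH (AT1G65930), the cytosolic enzyme, had 374, 354 and 390.5 FPKM in lon1-1, against 295, 290.03 and 275 FPKM in wt, with groups that did not overlap and a log2 fold change of 0.38 (SE 0.04, limma, adjusted p = 2.52e-05). AT5G14590, placed in mitochondria and plastids, had 22.2, 21.8 and 21.1 FPKM in lon1-1, against 17.1, 18.1 and 16.4 FPKM in wt, and rose by 0.32 on the log2 scale (SE 0.04, limma, adjusted p = 8.07e-05). ICDH (AT1G54340), the peroxisomal enzyme, rose by 0.33 (SE 0.06, limma, adjusted p = 0.000522), at 23.2 ± 1.14 FPKM in lon1-1 and 18.3 ± 1.46 FPKM in wt (SD, n = 3 each). The cytosolic gene made up 89.2% ± 0.366 of the summed level of the 3 in lon1-1 and 89.0% ± 0.501 in wt (SD, n = 3 each). Each of the 3 ratios between these genes overlapped between genotypes (two-sided exact permutation p = 0.7, 0.6 and 1).

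The 2-oxoglutarate dehydrogenase complex, which makes succinyl-CoA, rose in all 4 of its members, and in both subunits 1 copy had a larger log2 fold change than the other. AT5G65750, an E1 gene that decarboxylates 2-oxoglutarate, had 50.4, 49.2 and 49.2 FPKM in lon1-1, against 24.4, 24.3 and 25.9 FPKM in wt. Each lon1-1 library lay well above each wt library, and the log2 fold change was 0.97 (SE 0.04, limma, adjusted p = 7.37e-09). Its paralog AT3G55410 had 68.8 ± 1.05 FPKM in lon1-1 and 48.0 ± 0.447 FPKM in wt (SD, n = 3 each), a log2 fold change of 0.51 (SE 0.03, limma, adjusted p = 1.72e-07). The ratio of AT3G55410 to AT5G65750 was therefore 1.39 in lon1-1 and 1.93 in wt. AT5G55070, an E2 gene that transfers the succinyl group, had 83.4, 79.9 and 82.4 FPKM in lon1-1, against 44.8, 44.7 and 42.8 FPKM in wt, and rose by 0.88 on the log2 scale (SE 0.03, limma, adjusted p = 8.35e-09). Its paralog AT4G26910 had 39.2, 42.1 and 42.7 FPKM in lon1-1, against 30.3, 30.2 and 28.7 FPKM in wt, and rose by 0.46 (SE 0.04, limma, adjusted p = 4.31e-06). The ratio of AT5G55070 to AT4G26910 was 1.98 in lon1-1 and 1.48 in wt, so that here the more abundant copy had the larger rise, while for E1 it was the less abundant copy. The summed level of the 4 genes was 242 ± 1.23 FPKM in lon1-1 and 147 ± 0.775 FPKM in wt (SD, n = 3 each).

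Succinyl-CoA ligase, which makes ATP from succinyl-CoA, rose in all 3 genes. AT2G20420, the beta subunit gene, had 88.2, 88.3 and 88.5 FPKM in lon1-1, against 72.0, 73.4 and 71.5 FPKM in wt, a log2 fold change of 0.29 (SE 0.03, limma, adjusted p = 7.81e-06). The alpha subunit gene AT5G23250 had 21.8, 21.4 and 22.6 FPKM in lon1-1, against 13.1, 12.9 and 13.1 FPKM in wt, a log2 fold change of 0.71 (SE 0.04, limma, adjusted p = 1.06e-07). The more abundant alpha gene AT5G08300 had 89.8 ± 3.19 FPKM in lon1-1 and 56.7 ± 1.98 FPKM in wt (SD, n = 3 each), a log2 fold change of 0.65 (limma, adjusted p = 1.83e-07). Both alpha genes thus had larger log2 fold changes than the beta gene. In lon1-1 AT5G08300 stood level with AT2G20420, and in wt it lay below it. AT5G23250 passed against a fold of 1.5 narrowly (limma treat, adjusted p = 0.0334) and no longer did so with median-ratio scaling (adjusted p = 0.513) or without wt A, B or C or lon1-1 A or C (adjusted p = 0.0689 to 0.132).

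Succinate dehydrogenase itself was left out of the members, but 2 of its assembly factors are members. SDHAF2 (AT5G51040), which helps to attach FAD to the catalytic subunit, had 28.3, 28.3 and 29.9 FPKM in lon1-1, against 17.6, 16.6 and 13.3 FPKM in wt. The groups did not overlap, wt C was the lowest library, and the log2 fold change was 0.83 (SE 0.08, limma, adjusted p = 8.99e-06). SDHAF2 was just past the threshold for a fold of 1.5 (limma treat, adjusted p = 0.046) and missed it with either scaling, with no filter, without wt B or C and without any single lon1-1 library (adjusted p = 0.0556 to 0.137). AT5G67490, annotated as a succinate dehydrogenase assembly factor, had 46.7, 43.9 and 40.9 FPKM in lon1-1, against 37.8, 38.9 and 38.9 FPKM in wt, a log2 fold change of 0.18 (SE 0.05, limma, adjusted p = 0.00522), and did not pass with median-ratio scaling (adjusted p = 0.0584). The ratio of AT5G67490 to SDHAF2 was 1.52 in lon1-1 and 2.45 in wt. Of the 13 rows of complex II left out, 11 were tested, 10 rose and 1 did not pass (AT5G62575, log2 fold change 0.10, limma, adjusted p = 0.186), with a median log2 fold change of 0.35. Over all tested genes 44.7% were higher, and the median was 0.077. The flavoprotein gene SDH1-1 had the largest log2 fold change of these complex II rows, 0.88 (limma, adjusted p = 4.01e-09), with 77.6 ± 1.19 FPKM in lon1-1 and 41.7 ± 0.430 FPKM in wt (SD, n = 3 each). It lies outside the rule for named genes and was picked after its value was seen.

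Fumarase, which hydrates fumarate to malate, is encoded by a mitochondrial and a cytosolic gene whose levels differed in opposite directions. FUM1 (AT2G47510), the mitochondrial enzyme, had 85.6, 83.1 and 91.7 FPKM in lon1-1, against 46.2, 46.9 and 47.3 FPKM in wt, a log2 fold change of 0.88 (SE 0.04, limma, adjusted p = 2.88e-08). FUM2 (AT5G50950), the cytosolic enzyme that lets leaves store fumarate, was low in darkness: it had 0.02, 0.10 and 0.10 FPKM in lon1-1, against 0.70, 0.68 and 0.50 FPKM in wt. Every lon1-1 library lay below every wt library, but FUM2 was under the level needed for the test. By the estimated depth, its values stand for 1 to 7 fragments in lon1-1 and 30 to 43 in wt. Without a filter on low values, FUM2 passed as lower (limma, log2 fold change of -0.60, adjusted p = 8.61e-05), and so did AT5G54950 (-0.53, adjusted p = 0.0193). FUM1 made up 99.9% of the summed fumarase level in lon1-1 and 98.7% in wt.

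Of the 7 malate dehydrogenase members, all of them tested, 4 rose, 2 fell and 1 did not pass. Both mitochondrial genes rose, with similar log2 fold changes. mMDH1 (AT1G53240) had 208, 210.2 and 200.3 FPKM in lon1-1, against 106, 106 and 105 FPKM in wt, a log2 fold change of 0.95 (SE 0.03, limma, adjusted p = 2.73e-09). mMDH2 (AT3G15020) had 27.1, 27.1 and 28.2 FPKM in lon1-1, against 14.3, 14.7 and 14.1 FPKM in wt, a log2 fold change of 0.89 (SE 0.04, limma, adjusted p = 1.79e-08). The ratio of mMDH1 to mMDH2 was 7.50 in lon1-1 and 7.37 in wt and overlapped between genotypes (two-sided exact permutation p = 0.6). mMDH2 shares 10.9% of its transcript sequence, counted in windows of 100 bases, with the neighbouring gene AT3G15010, and its level is less certain for that reason.

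The cytosolic malate dehydrogenase genes, which take part in malate exchange across organelle membranes, did not move together. c-NAD-MDH2 (AT5G43330) had the largest rise of all members: 111, 109 and 118 FPKM in lon1-1, against 46.4, 48.5 and 48.7 FPKM in wt. The lowest lon1-1 library was thus far above the highest wt library, and the log2 fold change was 1.21 (SE 0.04, limma, adjusted p = 2.42e-09). c-NAD-MDH1 (AT1G04410), the most abundant member, had 630.2, 617 and 621 FPKM in lon1-1, against 603, 607 and 617 FPKM in wt. Its groups touched without overlapping, the log2 fold change of 0.032 did not pass (SE 0.03, limma, adjusted p = 0.374), and its sign turned with median-ratio scaling (-0.042) and with upper-quartile scaling (-0.023). c-NAD-MDH3 (AT5G56720), another cytosolic copy at a very low level, had 1.19, 1.09 and 1.24 FPKM in lon1-1, against 2.19, 2.36 and 2.27 FPKM in wt, and fell by 0.59 on the log2 scale (SE 0.07, limma, adjusted p = 1.97e-05). On that scale the added 1 shrinks the change, since the mean in lon1-1 was 0.516 of the mean in wt. With a pseudocount of 0.1 it also passed as lower beyond 1.5-fold (limma treat, adjusted p = 0.0368).

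In plastids, the NAD-dependent gene MDH (AT3G47520) had 41.7 ± 2.52 FPKM in lon1-1 and 35.4 ± 0.609 FPKM in wt (SD, n = 3 each) and rose by 0.23 on the log2 scale (limma, adjusted p = 0.000814). AT5G58330, the light-activated NADP-dependent enzyme that exports reducing power from chloroplasts, had 9.52, 9.29 and 10.04 FPKM in lon1-1, against 11.9, 10.9 and 11.7 FPKM in wt, and fell by 0.24 on the log2 scale (SE 0.05, limma, adjusted p = 0.00164). Summed by compartment, mitochondrial malate dehydrogenase had 234 ± 4.54 FPKM in lon1-1 and 120.3 ± 0.828 FPKM in wt (SD, n = 3 each). The cytosolic genes had 736 ± 8.06 FPKM in lon1-1 and 659 ± 8.01 FPKM in wt, and the plastid genes 51.4 ± 2.35 FPKM in lon1-1 and 46.9 ± 1.03 FPKM in wt (SD, n = 3 each). c-NAD-MDH1 supplied 61.6% ± 0.163 of the NAD-dependent malate dehydrogenase level among the members in lon1-1 and 74.7% ± 0.175 in wt (SD, n = 3 each). The share of mMDH1 was 20.4% ± 0.517 in lon1-1 and 13.0% ± 0.191 in wt, and that of c-NAD-MDH2 was 11.1% ± 0.480 in lon1-1 and 5.87% ± 0.116 in wt (SD, n = 3 each). The peroxisomal gene PMDH2 is not a member. It fell, with 8.33 ± 0.429 FPKM in lon1-1 and 23.4 ± 0.495 FPKM in wt (SD, n = 3 each; log2 fold change -1.39, limma, adjusted p = 3.79e-09). MLS, another glyoxylate cycle locus left out, rose, with means of 430 FPKM in lon1-1 and 61.3 FPKM in wt. Its log2 fold change was 2.79 (limma, adjusted p = 9.84e-12), larger than that of CSY2, CSY3 or any member. PMDH2, MLS, CSY2 and CSY3 all lie outside the rule for named genes.

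The tested copies of phosphoenolpyruvate carboxylase also went different ways. PPC1 (AT1G53310) had 106, 104 and 107 FPKM in lon1-1, against 72.4, 73.8 and 73.8 FPKM in wt, and rose by 0.52 on the log2 scale (SE 0.03, limma, adjusted p = 1.13e-07). PPC2 (AT2G42600) had 10.4, 10.4 and 10.7 FPKM in lon1-1, against 19.9, 21.4 and 20.6 FPKM in wt, and fell by 0.91 (SE 0.04, limma, adjusted p = 3.55e-08), the largest fall among the members. PPC3 (AT3G14940) had 88.5 ± 2.10 FPKM in lon1-1 and 88.6 ± 1.29 FPKM in wt (SD, n = 3 each), overlapped between genotypes and did not pass (limma, adjusted p = 0.958). The order of the 2 abundant copies therefore differed: PPC1 was 1.20 times PPC3 in lon1-1 and 0.828 times PPC3 in wt. PPC1 was 10 times PPC2 in lon1-1 and 3.55 times PPC2 in wt. PPC4, the bacterial-type gene, had at most 0.03 FPKM in any library. The summed level was 205 ± 1.13 FPKM in lon1-1 and 183 ± 2.80 FPKM in wt (SD, n = 3 each).

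**Figure D3:**
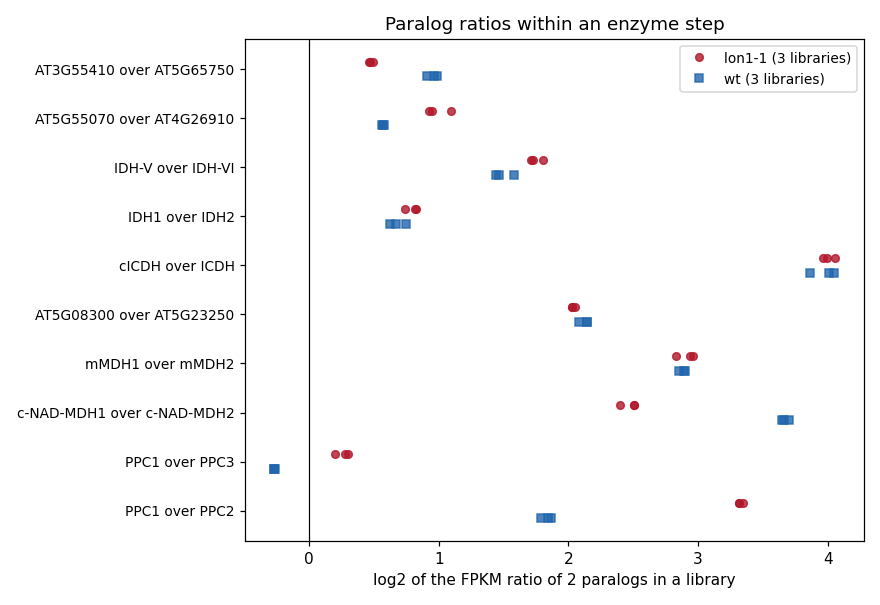
Log2 ratio of the FPKM of 2 paralogs within a library (horizontal axis), for 10 pairs, with circles for lon1-1 and squares for wt. Circles and squares are apart for 7 of the pairs drawn and overlap for IDH1 over IDH2, cICDH over ICDH and mMDH1 over mMDH2, and PPC1 over PPC3 lies above 0 in lon1-1 and below 0 in wt.

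Ratios between paralogs do not depend on how libraries are scaled to each other. Ratios were taken for 27 pairs of tested members with the same role, which are paralogs except for the 2 assembly factors, and 15 of the pairs come from the same 6 NAD-dependent malate dehydrogenase genes. The ratio did not overlap between genotypes in 22 pairs. Of all tested single genes, 45.7% lay wholly above and 33.4% wholly below wt in lon1-1, and other gene pairs were not examined, so nothing particular to these pairs is read from the count. With 3 libraries against 3, the smallest p of the two-sided exact permutation test is 0.1, so no pair can pass, and the Benjamini-Hochberg adjusted p of the 22 pairs was 0.123. The ratio of c-NAD-MDH1 to c-NAD-MDH2 was 5.54 in lon1-1 and 12.7 in wt, a log2 difference of -1.20, and that of PPC1 to PPC2 differed by 1.497 on the log2 scale. The ratio of the catalytic genes IDH-V and IDH-VI was 3.36 in lon1-1 and 2.82 in wt, and that of the alpha ligase genes AT5G08300 and AT5G23250 was 4.10 in lon1-1 and 4.35 in wt.

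**Figure D4:**
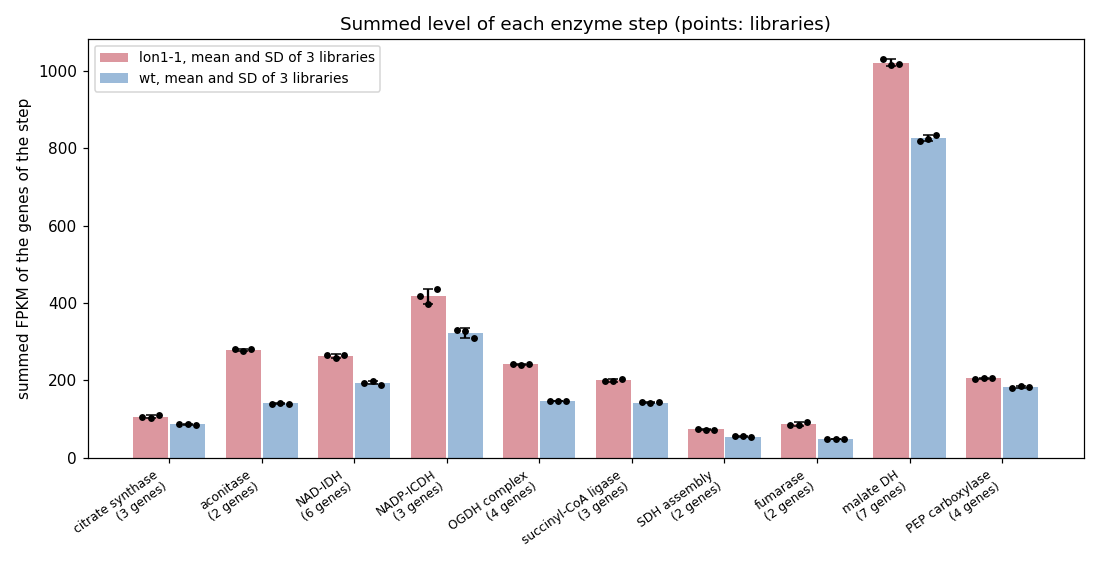
Summed FPKM of the members of each enzyme step (vertical axis), with bars for the mean, whiskers for the SD of 3 libraries and points for single libraries, lon1-1 left of wt. In all 10 steps drawn the lon1-1 points lie above the wt points, with the widest relative gap for aconitase and the narrowest for phosphoenolpyruvate carboxylase.

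Step by step, every sum of members with a role in the cycle was higher in lon1-1 than in wt in all libraries, and each had the smallest p that the exact permutation test allows here (two-sided, p = 0.1), so none passes a threshold of 0.05. The log2 ratio of the sums was 0.99 for aconitase, 0.87 for fumarase and 0.72 for the 2-oxoglutarate dehydrogenase complex. It was 0.49 for succinyl-CoA ligase, 0.44 for NAD-dependent isocitrate dehydrogenase, 0.42 for the assembly factors and 0.37 for the NADP-dependent isocitrate dehydrogenases. Malate dehydrogenase had 0.31, citrate synthase 0.29 and phosphoenolpyruvate carboxylase 0.17. For the mitochondrial malate dehydrogenases alone it was 0.96. The remaining member, AT5G65760, is annotated as a serine carboxypeptidase of family S28 and starts within the last bases of AT5G65750. It had 19.97, 17.8 and 19.0 FPKM in lon1-1, against 20.8, 19.8 and 18.9 FPKM in wt, overlapped between genotypes and did not pass (log2 fold change -0.06, limma, adjusted p = 0.268). With median-ratio and upper-quartile scaling it passed as lower (-0.13 and -0.12, adjusted p = 0.0225 and 0.0405).

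Genes around the cycle that do not carry the term were taken from the textbook list. All 17 were tested: 11 rose, 2 fell and 4 did not pass, 1 rose beyond 1.5-fold, and the median log2 fold change was 0.26. Over all tested genes, 44.7% were higher, 32.3% lower and 8.33% higher beyond 1.5-fold, with a median of 0.077. The pyruvate dehydrogenase complex feeds acetyl-CoA into the cycle, and 5 of its 6 genes rose. The E2 gene AT3G13930 had 66.0 ± 0.601 FPKM in lon1-1 and 37.8 ± 0.814 FPKM in wt (SD, n = 3 each), a log2 fold change of 0.79 (limma, adjusted p = 1.16e-08). The lower E2 gene AT1G54220 rose by 0.73 (limma, adjusted p = 8.61e-07). The 2 E1 alpha genes went opposite ways: IAR4 rose by 0.62 and E1 ALPHA fell by 0.35 (limma, adjusted p = 5.5e-08 and 2.53e-06), both outside the rule for named genes. The E3 subunit is shared by both dehydrogenase complexes. Its gene mtLPD2 rose by 0.61 (limma, adjusted p = 6.97e-08), at 79.2 ± 1.09 FPKM in lon1-1 and 51.7 ± 1.11 FPKM in wt (SD, n = 3 each). The other E3 gene, mtLPD1, lies outside the rule for named genes. It had means of 44.8 FPKM in lon1-1 and 42.6 FPKM in wt and did not pass (log2 fold change 0.07, limma, adjusted p = 0.0816).

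The mitochondrial NAD malic enzyme, which turns malate into pyruvate, rose in both subunits. NAD-ME2 had 45.1 ± 0.348 FPKM in lon1-1 and 30.1 ± 1.43 FPKM in wt (SD, n = 3 each), a log2 fold change of 0.57 (limma, adjusted p = 5.54e-07), and NAD-ME1 rose by 0.26 (limma, adjusted p = 4.04e-05). ATP citrate lyase, which cleaves exported citrate in the cytosol, was divided, with 2 genes higher, 1 lower and 2 that did not pass among 5. ACLA-1 had 160 FPKM in lon1-1 and 108 FPKM in wt on average and rose by 0.56 (limma, adjusted p = 1.25e-07). ACLA-3, of the same subunit, had 67.2 ± 1.74 FPKM in lon1-1 and 78.6 ± 1.08 FPKM in wt (SD, n = 3 each) and fell by 0.22 (limma, adjusted p = 0.000107).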

How the data were processed

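RNA of whole seedlings was sequenced in 6 libraries, from which ribosomal RNA had been removed and which kept strand, per the labels' protocols. The authors deposited 1 table of FPKM values with annotation, written to 2 decimals. HISAT2, Bowtie2, RSEM and TAIR10 are named in the submitters' processing notes, without versions, and whether counting used strand is not given in the sources used here. Gene IDs matched the TAIR10.1 annotation for 24152 rows, and 41 rows are added models. Promoters and motifs came from TAIR10.1 and its own gene starts, so the build of the values differs in name.

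Log2(FPKM + 1) of genes that reached 1 FPKM in 3 or more libraries was compared with limma 3.58.1 in R 4.3.3 (trend, genotype as the only term, Benjamini-Hochberg adjustment, threshold 0.05) and with limma treat against a fold of 1.5. Step sums and paralog ratios of FPKM were compared by two-sided exact permutation tests. Fold changes are lon1-1 over wt. Depth, judged from the size of the smallest FPKM steps, was 34250000 to 35250000 fragments in lon1-1 and 32250000 to 32750000 in wt, so that 1 FPKM in 1 kilobase stands for 26.4 to 28.9 fragments. It is an estimate and gives no counting intervals. Identical values made up 0.577% to 0.956% of genes between libraries of 1 genotype, so none is a repeat deposit. Members of multigene families can share reads, but no 2 members share a window of 100 bases.

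The members, the gene lists and the tests were chosen with earlier results of these data known. Values per library are given for the most abundant member of each step, the 8 largest rises and falls, and the paralog most unlike the most abundant one, and up to 2 called genes per step are named outside the members, 1 of which is not reported here. Compartments and subunit roles are textbook assignments. Another pseudocount, 2 other filters, 2 scalings, a replicate block and leaving out each library were tried.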

Additional observations from a re-analysis of the deposited data

How the results depend on the processing

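The count of members higher was 24, also under every alternative run except median-ratio scaling, where it was 23. The count of members lower was 3, and 5 with no filter on low values, because FUM2 and AT5G54950 entered the test. It was 4 with either scaling, where AT5G65760 was added, and 2 with the filter at 5 FPKM, which left out c-NAD-MDH3. Members lower beyond 1.5-fold numbered 1, and 2 with a pseudocount of 0.1, which added c-NAD-MDH3. Members higher beyond 1.5-fold numbered 9, and 7 to 9 under the alternatives. LON1 kept its direction and call in every alternative run, and with the filter at 5 FPKM it was not tested.

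Signs turned where values were near 0. The log2 fold change of c-NAD-MDH1 was 0.032 in the main fit, -0.042 with median-ratio and -0.023 with upper-quartile scaling. Either scaling divides all values of a library by 1 number, so abundant genes shift by similar amounts. PPC3 went from -0.002 to -0.075 with median-ratio and -0.057 with upper-quartile scaling. The log2 fold change of PPC3 lay between -0.020 and 0.013 when single libraries were left out. The log2 difference of the paralog ratio cICDH over ICDH then lay between -0.020 and 0.071, of cICDH over AT5G14590 between -0.015 and 0.081, and of ICDH over AT5G14590 between -0.054 and 0.047. Step sums kept their direction in all 88 recalculations, most of which could not have turned it. The replicate block leaves a difference of means as it is. Where the groups do not overlap, leaving out a single library cannot turn the sign. The median of all tested genes was 0.077, and 0.012 and 0.029 with the scalings, where the median of the members was 0.31 and 0.33.

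Same-lettered libraries of the 2 genotypes did not deviate together (correlations of 0.060, 0.017 and -0.032), so the letters were not taken as pairs. With the replicate block, 24 members were higher and 3 lower, as without it, and 8 instead of 9 rose beyond 1.5-fold, AT5G23250 not passing. The 3 libraries per genotype limit the precision of every value, and levels under 1 FPKM rest on few fragments.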
